A study of Mus musculus with 6 samples.

Results

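The myosin light chains and their kinases form a family of 10 genes here, chosen by name: the gene symbols Myl1, Myl2, Myl3, Myl4, Myl6, Myl7, Myl9, Mylpf, Mylk and Mylk3, taken from the 55487 genes of the deposited tables. All 10 were found once each and all 10 had enough counts to be tested. They were measured by bulk RNA sequencing in the left ventricle of male C57BL/6 mice, 8 weeks old, to study how alcohol affects heart muscle. ET mice, whose disease state is labelled alcoholic cardiomyopathy, ate a diet containing 5% ethanol for 10 days and were then given ethanol once by gavage. Mice of the CONT group ate an isocaloric diet for the same 10 days and were given maltose-dextrin by gavage. Ventricles were collected 9 h after the gavage. Each group has 3 libraries. Whether these are 3 different animals is not stated, so a p-value here covers only the spread among the samples, which may be technical.

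A myosin motor of muscle consists of heavy chains with light chains wrapped around each neck: an essential light chain, which stiffens the lever arm, and a regulatory light chain, which can be phosphorylated. Phosphorylation of the regulatory chain by a calmodulin-dependent myosin light chain kinase switches smooth muscle and non-muscle myosin on, and in heart and skeletal muscle it tunes force. The ventricle of the adult mouse uses Myl2 and Myl3, the atrium Myl7 and Myl4, and fast skeletal muscle Mylpf and Myl1. Smooth muscle and non-muscle cells use Myl9 and Myl6, and Mylk3 is the cardiac kinase whose main substrate is the Myl2 protein.

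In the ET libraries the ventricular light chains Myl2 and Myl3 had lower mRNA levels than in every CONT library, the cardiac kinase Mylk3 had a higher mean, and the atrial pair Myl7 and Myl4 varied more between libraries of the same group than between groups. No member passed the test across all genes: edgeR's quasi-likelihood test called 0 of the 10 members and 0 of 15727 genes (0%) at an adjusted p under 0.05. At an unadjusted p under 0.05 it had 1 of the 10 members, Mylpf, against 8.65% of all genes (4.19% with ET higher, 4.46% with ET lower), and DESeq2 called 0 of the 10 members against 1.18% of all genes, with no adjusted p for Myl4 and Myl7. With a term for the library sets described below, edgeR called 0 of the 10 members (0% of all genes) and had 3 of the 10, Myl2, Mylk and Mylpf, at an unadjusted p under 0.05 (10.0% of all genes). Normalised levels did not overlap between groups in 3 members, Myl2, Myl3 and Mylpf, all lower in ET (8.36% of all genes), and in 0 members with ET higher (6.89% of all genes). The median log2 fold change (ET over CONT) of the 10 members was 0.58, with 6 higher and 4 lower, and that of all genes tested was 0.01. Of the higher members, Myl1, Myl4, Myl7 and Myl9 turned lower without ET replicate 1, at -0.93, -2.74, -2.69 and -0.49. Levels are given in TPM, a unit scaled for transcript length, so that levels can be compared between genes. Fold changes come from CPM, counts scaled to the library total and to TMM factors, which correct for differences in library makeup.

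**Figure D1:**
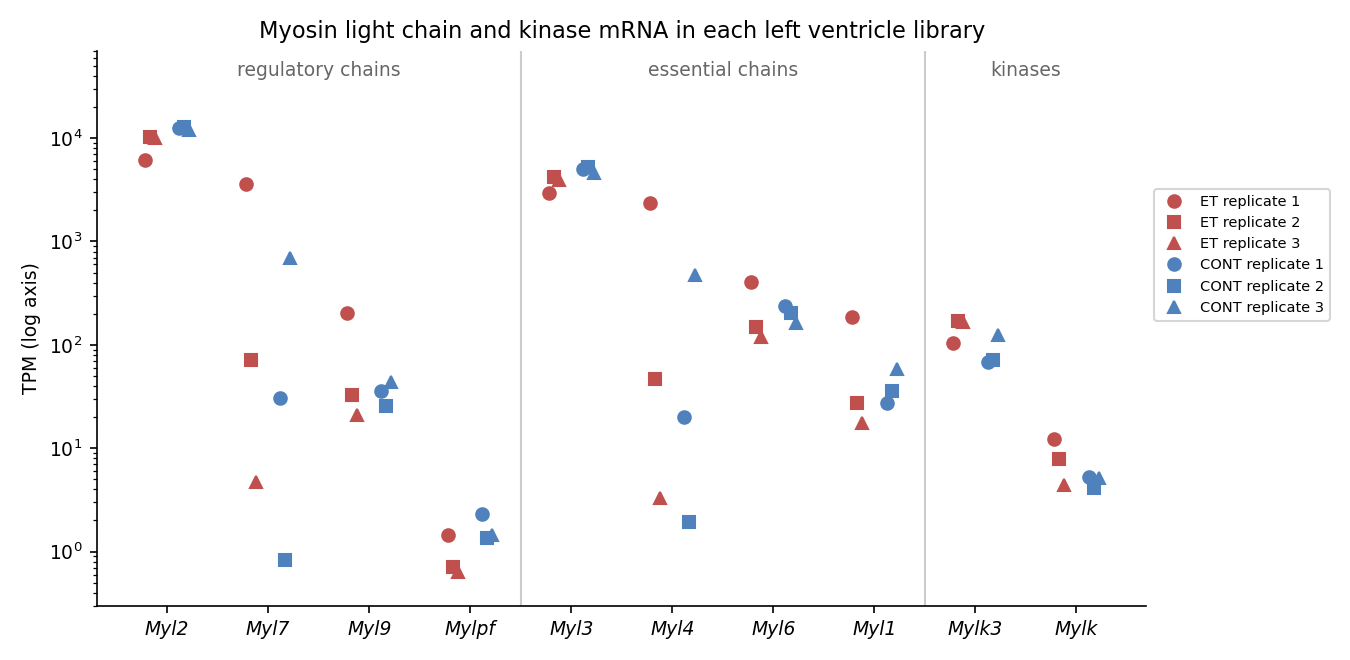
TPM (log axis) of the 10 members in each library, with ET left of CONT for each gene and 1 symbol per library. Myl2 lies between 6149 and 10206 TPM in ET libraries and between 11938 and 12932 TPM in CONT libraries, while Myl7 and Myl4 overlap between the groups and range from 4.72 to 3587 TPM and from 3.28 to 2341 TPM in ET.

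The libraries held 28838386 to 37762233 expected counts each, and markers of the ventricular cardiomyocyte were high in all of them: the 8 genes of that list summed to 26125 to 33911 TPM in ET and 32553 to 36438 TPM in CONT. Of these 8 genes, 6 were lower and 2 higher in ET, with a median log2 fold change of -0.24. Tnni3 (cardiac troponin I) was lower in ET without overlap in CPM, as Myl2 and Myl3 were. Its log2 fold change was -0.60 ± 0.19 (SE; adjusted p = 0.515 in edgeR's quasi-likelihood test). ET replicate 1 and CONT replicate 3 stand apart by markers of other tissue. A list of 7 atrial genes that holds no member, led by Nppa (atrial natriuretic peptide) and Sln (sarcolipin), summed to 8840, 390 and 108 TPM in ET replicates 1 to 3 and to 124, 110 and 1052 TPM in CONT replicates 1 to 3. Most of this sum was Nppa alone, at 8200, 348 and 64.1 TPM in ET and 94.4, 81.1 and 864 TPM in CONT. ET replicate 1 also had the highest sums of the 6 fibroblast markers (869 TPM, against 233 to 341 TPM in the other libraries), of the 7 smooth muscle markers (493 TPM, against 91.6 to 193 TPM) and of the 5 mesothelial markers (85.6 TPM, against 3.14 to 11.2 TPM). The libraries were clustered by the effective gene lengths in the files and cut into 2 sets, a number fixed beforehand. These sets cut across the groups. Set 1 holds ET replicate 1 beside CONT replicates 1 and 2, and set 2 holds ET replicates 2 and 3 beside CONT replicate 3. The root-mean-square log2 distance in effective length was 0.0797 to 0.103 within these sets and 0.112 to 0.167 between them. These distances are the ones that were clustered, so they are no separate support for the sets. In bulk tissue, fewer cells of a type and less RNA per cell cannot be told apart.

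The light chains are paralogs, so reads could in principle be split between them. Among the 12 pairs of member light chains within a family, the aligned coding bases were 71.8% to 80.6% identical. The longest exact run shared by any transcripts of a member pair was 29 bases, below the read length of 75 bases. That run lies in the coding part of the ventricular and the atrial essential chain, Myl3 and Myl4. The ventricular and the atrial regulatory chain, Myl2 and Myl7, share at most 16 bases. Both runs are shown because the ventricular and atrial levels given below rest on telling these genes apart.
Myl3 and Myl4: gaggacttcgtggaggggctgcgggtctt
Myl2 and Myl7: ttcaaggaagccttca
Outside the members, Myl9 shares 35 bases with Myl12a and with Myl12b, Myl6 shares 46 bases with Myl6b, and Myl12a and Myl12b share 529 bases with each other, so that counts of the last pair may have been split between them.

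Some promoter windows of the members hold a motif that the choice of members did not use. A CArG box, the binding motif of serum response factor, was searched on both strands in the 250 bases before each RefSeq start (GRCm38.p6). It was found in 4 of the 10 members, Myl3, Myl6, Myl7 and Myl9 (4 of 13 windows), and in 1.47% of 32851 windows of all genes. The windows of Myl7, Myl3 and Myl9 are shown because they carry a box near the start of an atrial, a ventricular and a smooth muscle chain, with the box in capitals. The Myl7 window is chr11:5898783-5899032 (minus strand), the Myl3 window chr9:110763428-110763645 (plus strand) and the Myl9 window chr2:156775214-156775419 (plus strand), each ending directly before a transcript start annotated by GENCODE.
Myl7: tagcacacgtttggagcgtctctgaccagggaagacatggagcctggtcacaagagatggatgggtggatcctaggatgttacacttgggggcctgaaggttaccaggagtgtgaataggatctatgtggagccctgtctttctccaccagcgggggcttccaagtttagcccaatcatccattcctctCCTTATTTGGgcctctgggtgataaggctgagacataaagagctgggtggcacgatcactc
Myl3: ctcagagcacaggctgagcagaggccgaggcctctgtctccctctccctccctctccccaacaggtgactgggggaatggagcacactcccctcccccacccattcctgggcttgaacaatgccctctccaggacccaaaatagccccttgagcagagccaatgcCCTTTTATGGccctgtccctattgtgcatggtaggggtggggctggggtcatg
Myl9: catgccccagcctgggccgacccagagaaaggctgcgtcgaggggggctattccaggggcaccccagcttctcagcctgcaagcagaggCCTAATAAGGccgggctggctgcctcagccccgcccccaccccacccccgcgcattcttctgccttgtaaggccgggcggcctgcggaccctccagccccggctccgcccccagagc
The box begins 61 bases before the annotated start of Myl7, 53 bases before that of Myl3 and 117 bases before that of Myl9. The box of Myl6 lies before its other RefSeq start, within the span of the gene. Per window, GATAA, a core of GATA factor motifs, was found in 5 of 13, against 22.6% of all windows, and CATTCC, a core of TEAD factor motifs, in 5 of 13, against 12.6%. The E-box CANNTG was found in 8 of 13 windows, against 66.2% of all windows, and TATAAA in 2 of 13, against 12.4%. No match to the MEF2 site was found in the member windows, against 2.92% of all windows. The RefSeq starts listed for Myl2 lie 7762 and 8227 bases before its annotated start, so its proximal promoter was not analysed here.

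Myl2, the ventricular regulatory light chain (ENSMUSG00000013936, chromosome 5, 122100951 to 122113472, plus strand), was the most abundant member in every library. It stood at 6149, 10206 and 9921 TPM in ET replicates 1 to 3, against 12613, 12932 and 11938 TPM in CONT replicates 1 to 3. All ET libraries lay below all CONT libraries, with ET replicate 1 lowest. In CPM the groups averaged 4858 ± 1653 in ET and 7761 ± 965 in CONT (SD, n = 3 each). This gave a log2 fold change of -0.68 ± 0.30 (SE) and, by edgeR's quasi-likelihood test, an adjusted p = 0.574, so it did not pass. Leaving out ET replicate 1 brought the log2 fold change to -0.40, and within sets 1 and 2 the log2 ratio of mean CPM was -1.48 and -0.21. Of the exon bases of Myl2, 3.08% overlap a gene on the opposite strand, Ccdc63.

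Myl7, the atrial regulatory light chain (ENSMUSG00000020469, chromosome 11, 5896637 to 5898782, minus strand), had the widest range of all members. It stood at 3587, 71.6 and 4.72 TPM in ET replicates 1 to 3, against 30.3, 0.83 and 688 TPM in CONT replicates 1 to 3, a ratio of 4322 between the highest and the lowest library. The lowest library, CONT replicate 2, held 13 expected counts of it and the highest, ET replicate 1, held 57269. Whether a count stands for a read or for a read pair is not stated. ET replicate 1 and CONT replicate 3, the libraries with the highest sums of other atrial genes, were also highest for Myl7, and the groups overlapped. Between groups the log2 fold change was 2.13 ± 2.40 (SE; adjusted p = 0.779 in edgeR's quasi-likelihood test). Without ET replicate 1 it was -2.69, so the direction of the group difference rests on that library. The log2 ratio of mean CPM was 7.45 within set 1 and -4.20 within set 2. Myl7 has 1 annotated transcript and no exon overlap with another gene.

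The atrial share of regulatory light chain mRNA shows the same spread on a scale that does not depend on normalisation between libraries. Of the summed TPM of Myl2, Myl7, Myl9 and Mylpf, Myl7 made up 36.1%, 0.694% and 0.0475% in ET replicates 1 to 3, against 0.239%, 0.0064% and 5.43% in CONT replicates 1 to 3. The mean share was 12.3 ± 20.6% in ET and 1.89 ± 3.07% in CONT (SD, n = 3 each), with p = 0.6 in a two-sided exact permutation test, where 0.1 is the smallest p that 3 against 3 libraries can give. Without ET replicate 1 the difference was -1.52 percentage points.

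The summed mRNA of the member regulatory chains, without Myl12a and Myl12b, did not overlap between the groups in TPM or in CPM. In TPM it came to 9942, 10311 and 9947 TPM in ET replicates 1 to 3, against 12682, 12960 and 12671 TPM in CONT replicates 1 to 3. ET replicate 1, which had much less Myl2 and much more Myl7 than the other ET libraries, lay close to them in this TPM sum. In CPM the sum was 4648, 5622 and 6067 in ET replicates 1 to 3, against 8072, 8601 and 7071 in CONT replicates 1 to 3, so on that scale ET replicate 1 lay below the other ET libraries. The log2 difference in TPM was -0.34, a ratio of 0.788, with p = 0.1 in a two-sided exact permutation test, the smallest possible here. It was -0.37 within set 1 and -0.32 within set 2, lay between -0.36 and -0.33 when each library was left out in turn, and was -0.54 in summed CPM. This sum was chosen after the values of its members had been seen. Myl2 made up 61.9%, 99.0% and 99.7% of it in ET replicates 1 to 3. In CONT replicates 1 to 3 the share of Myl2 was 99.5%, 99.8% and 94.2%. Outside ET replicate 1 the sum thus largely repeats the Myl2 values given above.

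**Figure D2:**
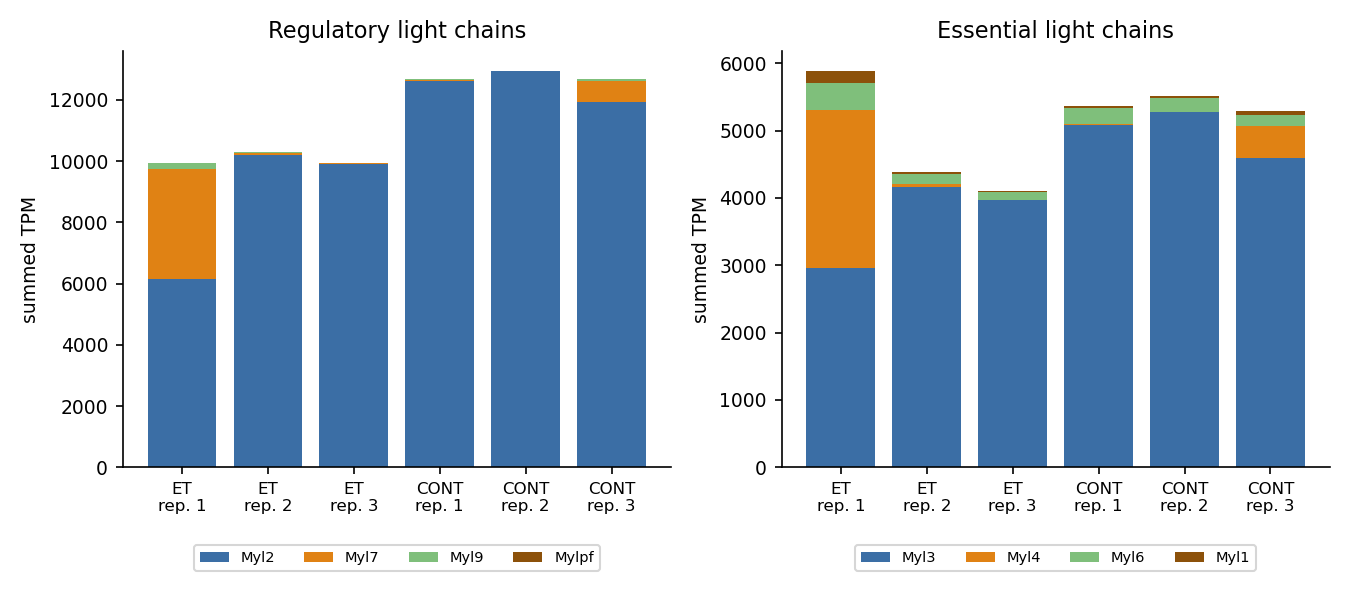
Summed TPM of the member regulatory chains (left) and the member essential chains (right) in each library, bars stacked by gene, ET libraries left of CONT libraries. The regulatory bars reach 9942 to 10311 TPM in ET and 12671 to 12960 TPM in CONT, although Myl7 fills 36.1% of the bar of ET replicate 1 and 5.43% of that of CONT replicate 3.

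Myl9, the regulatory chain of smooth muscle and non-muscle myosin (ENSMUSG00000067818, chromosome 2, 156775420 to 156781658, plus strand), stood at 204, 32.5 and 20.8 TPM in ET replicates 1 to 3, against 36.1, 25.8 and 43.5 TPM in CONT replicates 1 to 3. ET replicate 1 alone lay above the CONT range, and ET replicate 3 lay below it. Its log2 fold change was 0.98 ± 0.72 (SE; adjusted p = 0.676 in edgeR's quasi-likelihood test) and became -0.49 without ET replicate 1. Within sets 1 and 2 the log2 ratio of mean CPM was 2.22 and -0.61. ET replicate 1 also had the highest sum of smooth muscle markers, such as Myh11 (smooth muscle myosin heavy chain, 37.1 TPM, against 5.82 to 10.4 TPM in the other libraries), whose part in the value of Myl9 was not tested.

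Mylpf, the fast skeletal regulatory chain (ENSMUSG00000030672, chromosome 7, 127208890 to 127214298, plus strand), was the rarest member. It had 23, 9 and 9 expected counts in ET replicates 1 to 3, against 43, 24 and 24 in CONT replicates 1 to 3. That amounted to 1.44, 0.71 and 0.63 TPM in ET and to 2.32, 1.34 and 1.46 TPM in CONT. In CPM all ET libraries lay below all CONT libraries, whereas in TPM ET replicate 1 lay above CONT replicate 2. For Mylpf the log2 fold change was -1.23 ± 0.45 (SE; unadjusted p = 0.0279, adjusted p = 0.531 in edgeR's quasi-likelihood test), so this member did not pass either. The log2 ratio of mean CPM was -0.76 within set 1 and -1.35 within set 2. Of fast skeletal muscle markers, Myh4 was at 0 to 0.01 TPM, Myh1 at 0 to 0.02 TPM and Myh2 at 0.01 to 0.02 TPM, and the 12 markers of that list summed to 10.2 to 28.5 TPM in ET and 9.99 to 18.8 TPM in CONT. Most of that sum came from other markers of the list, such as Casq1 (a calcium store protein) and Mybpc2 (a myosin-binding protein). Casq1 stood at 6.35, 5.26 and 2.28 CPM in ET replicates 1 to 3, against 14.2, 6.63 and 13.3 CPM in CONT replicates 1 to 3. In CPM it was lower in ET without overlap, as Mylpf was, with a log2 fold change of -1.30 ± 0.43 (SE; adjusted p = 0.515 in edgeR's quasi-likelihood test). In TPM the groups overlapped for Casq1, at 5.45, 3.72 and 1.42 in ET and 8.4, 3.6 and 8.4 in CONT. Of the 4 markers of this list that were tested, 2 were higher and 2 lower in ET. The log2 fold change was 0.44 for Tnni2, 1.80 for Atp2a1 and -0.04 for Mybpc2. The part of these markers in the value of Mylpf was not tested.

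Myl3, the ventricular essential light chain (ENSMUSG00000059741, chromosome 9, 110741861 to 110769798, plus strand), followed Myl2 closely. It stood at 2960, 4164 and 3964 TPM in ET replicates 1 to 3, against 5079, 5273 and 4597 TPM in CONT replicates 1 to 3. Again all ET libraries lay below all CONT libraries and ET replicate 1 was lowest. The means were 2687 ± 796 CPM in ET and 4002 ± 523 CPM in CONT (SD, n = 3 each), a log2 fold change of -0.57 ± 0.28 (SE; adjusted p = 0.583 in edgeR's quasi-likelihood test). Without ET replicate 1 it was -0.33, and the log2 ratio of mean CPM was -1.26 within set 1 and -0.13 within set 2. The ratio of Myl2 to Myl3 in TPM was 2.08, 2.45 and 2.5 in ET replicates 1 to 3, against 2.48, 2.45 and 2.60 in CONT replicates 1 to 3, so that the pair kept nearly the same proportion outside ET replicate 1. Of the exon bases of Myl3, 4.65% overlap Pth1r on the opposite strand.

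Myl4, the atrial essential light chain (ENSMUSG00000061086, chromosome 11, 104550663 to 104595753, plus strand), ran with Myl7. It stood at 2341, 47.0 and 3.28 TPM in ET replicates 1 to 3, against 20.2, 1.94 and 471 TPM in CONT replicates 1 to 3. The order of the libraries was that of Myl7, and the ratio of Myl7 to Myl4 was 1.53, 1.52 and 1.44 in ET and 1.5, 0.428 and 1.46 in CONT, where the low ratio belongs to CONT replicate 2 with 13 counts of Myl7 and 46 of Myl4. Its log2 fold change was 2.05 ± 2.30 (SE; adjusted p = 0.778 in edgeR's quasi-likelihood test) and became -2.74 without ET replicate 1. Within sets 1 and 2 the log2 ratio of mean CPM was 7.31 and -4.26. Of the summed TPM of the 4 essential chains, Myl4 made up 39.7%, 1.07% and 0.0799% in ET replicates 1 to 3, against 0.377%, 0.0352% and 8.90% in CONT replicates 1 to 3 (p = 0.6, two-sided exact permutation test). The summed essential chain mRNA overlapped between groups, at 5892, 4388 and 4105 TPM in ET and 5362, 5515 and 5291 TPM in CONT (log2 difference -0.19, p = 0.4, two-sided exact permutation test). ET replicate 1 was the highest of all 6 libraries in this TPM sum. In CPM the groups did not overlap, at 3722, 3147 and 3386 in ET replicates 1 to 3 and 4331, 4654 and 3960 in CONT replicates 1 to 3 (log2 difference -0.34). Without ET replicate 1 the log2 difference in TPM was -0.34.

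**Figure D3:**
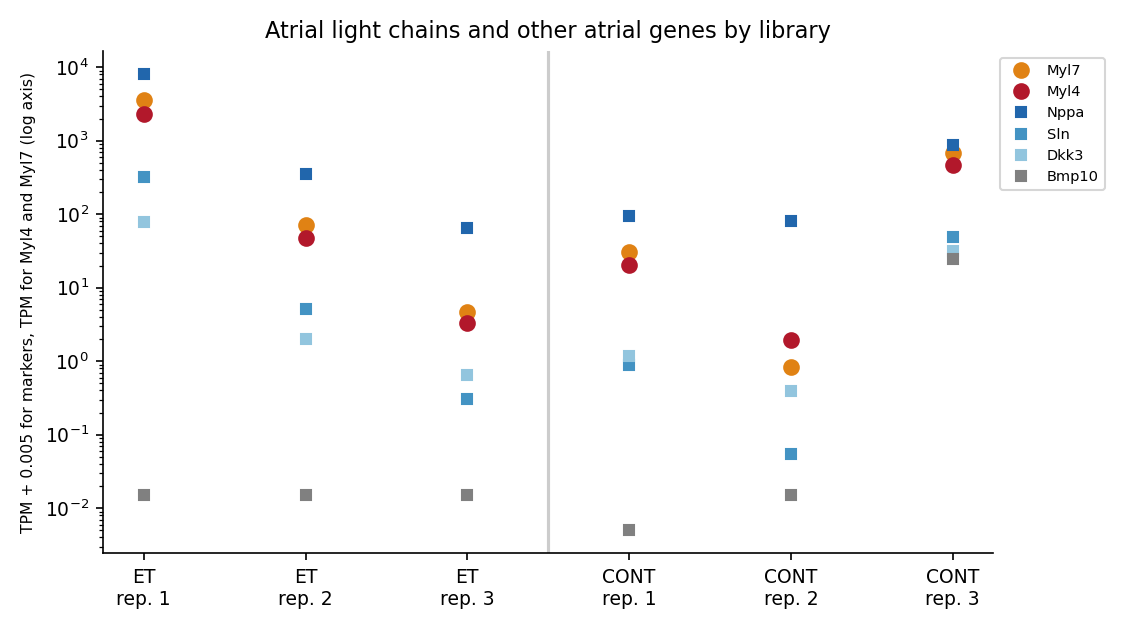
TPM (log axis) of the atrial light chains Myl7 and Myl4 (circles) and of Nppa, Sln, Dkk3 and Bmp10 (squares, with 0.005 added to allow values of 0) in each library, ET libraries on the left. All but Bmp10 are highest in ET replicate 1 and next highest in CONT replicate 3, while Bmp10 is at 24.9 TPM in CONT replicate 3 and at most 0.01 TPM elsewhere.

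All genes of the atrial list but Bmp10 were highest in ET replicate 1 and next highest in CONT replicate 3, as Myl7 and Myl4 were. In these 2 libraries Dkk3 stood at 78.1 and 31.5 TPM and Stard10 at 197 and 53.1 TPM. Kcnj3 stood at 35.0 and 25.4 TPM there, and Gja5 at 7.72 and 3.78 TPM. Sln, a small inhibitor of the calcium pump, stood at 322, 5.09 and 0.30 TPM in ET replicates 1 to 3, against 0.89, 0.05 and 48.8 TPM in CONT replicates 1 to 3, in the order of Myl7. Bmp10, a growth factor made mainly in the right atrium of the adult mouse, stood at 0.01 TPM in each ET library, against 0, 0.01 and 24.9 TPM in CONT replicates 1 to 3. ET replicate 1 thus had the highest Myl7 and Myl4 with hardly any Bmp10, and CONT replicate 3 had both. The part of atrial tissue in the group values of Myl7 and Myl4 was not tested.

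Myl6, the essential chain of smooth muscle and non-muscle myosin (ENSMUSG00000090841, chromosome 10, 128490860 to 128494145, minus strand), stood at 406, 150 and 120 TPM in ET replicates 1 to 3, against 235, 204 and 165 TPM in CONT replicates 1 to 3. ET replicate 1 lay above the CONT range and the other ET libraries lay below it. The log2 fold change was -0.14 ± 0.40 (SE; adjusted p = 0.921 in edgeR's quasi-likelihood test). With ET replicate 1 and CONT replicate 3 left out together it was -0.86 ± 0.15 (adjusted p = 0.0327 in edgeR's quasi-likelihood test), and it became 0.039 with library totals in place of TMM factors. The log2 ratio of mean CPM was 0.39 within set 1 and -0.24 within set 2. Myl1, the fast skeletal essential chain (ENSMUSG00000061816, chromosome 1, 66924295 to 66945404, minus strand), stood at 185, 27.4 and 17.7 TPM in ET replicates 1 to 3, against 27.5, 35.8 and 58.6 TPM in CONT replicates 1 to 3. Its highest libraries within each group were those of the atrial chains, ET replicate 1 and CONT replicate 3. The log2 fold change of Myl1 was 0.65 ± 0.78 (SE; adjusted p = 0.789 in edgeR's quasi-likelihood test) and became -0.93 without ET replicate 1. Within sets 1 and 2 the log2 ratio of mean CPM was 2.15 and -1.37. In every library Myl1 had a higher TPM than Mylpf, its partner in fast skeletal muscle.

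Mylk3, the cardiac myosin light chain kinase (ENSMUSG00000031698, chromosome 8, 85324303 to 85386345, minus strand), stood at 105, 171 and 167 TPM in ET replicates 1 to 3, against 67.7, 71.7 and 126 TPM in CONT replicates 1 to 3. CONT replicate 3 lay above ET replicate 1, and otherwise ET was higher. The means were 453 ± 147 CPM in ET and 312 ± 74.0 CPM in CONT (SD, n = 3 each), a log2 fold change of 0.54 ± 0.31 (SE; adjusted p = 0.616 in edgeR's quasi-likelihood test). In TPM, ET was higher within each set, by a log2 ratio of 0.59 in set 1 and 0.42 in set 2. In CPM it was higher by 0.07 in set 1, where ET replicate 1 stood at 285 CPM and CONT replicates 1 and 2 at 255 and 286 CPM, and by 0.44 in set 2. With a term for the sets the log2 fold change was 0.26, and without ET replicate 3 it was 0.35. The effective length of Mylk3 was 3224 and 3219 bases in ET replicates 2 and 3, against 3462, 3509 and 3278 bases in CONT replicates 1 to 3, with ET replicate 1 between CONT replicates 3 and 1. With both ET replicate 1 and CONT replicate 3 left out the log2 fold change was 1.01 ± 0.15 (SE; adjusted p = 0.0245 in edgeR's quasi-likelihood test). In that fit 2 of the 10 members passed, Mylk3 and Myl6, against 5.27% of all genes, but the remaining ET libraries belong to set 2 and the remaining CONT libraries to set 1, so that group and set cannot be told apart there.

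The ratio of Mylk3 to Myl2 mRNA, kinase over main substrate within a library, did not overlap between the groups. It was 0.0170, 0.0168 and 0.0168 in ET replicates 1 to 3, against 0.00537, 0.00554 and 0.0105 in CONT replicates 1 to 3. The ET libraries had nearly the same ratio although both genes differed between them, and CONT replicate 3 was the CONT library closest to ET. In ET replicate 1 the ratio came with the lowest Myl2 of all libraries (6149 TPM), where Myl7 made up 36.1% of the summed member regulatory chains. Mylk3 in that library stood at 285 CPM, beside 286 CPM in CONT replicate 2. The part of this makeup in the ratio was not tested. On the log2 scale the means were -5.89 ± 0.01 in ET and -7.20 ± 0.55 in CONT (SD, n = 3 each), a difference of 1.31, or 2.48-fold, with p = 0.1 in a two-sided exact permutation test, the smallest p possible with 3 against 3 libraries. Being a ratio within each library, it does not change with the scaling between libraries. The difference was 1.64 within set 1, whose only ET library is ET replicate 1, and 0.67 within set 2. It was 1.14 to 1.63 when each library was left out in turn. Computed from expected counts, with no length scaling, it was 1.24. The pair was picked with the values of both genes known. Myl2 alone already did not overlap between the groups. How many other genes would give a ratio to Myl2 without overlap was not tested, so the difference is not shown to be particular to this pair.

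**Figure D4:**
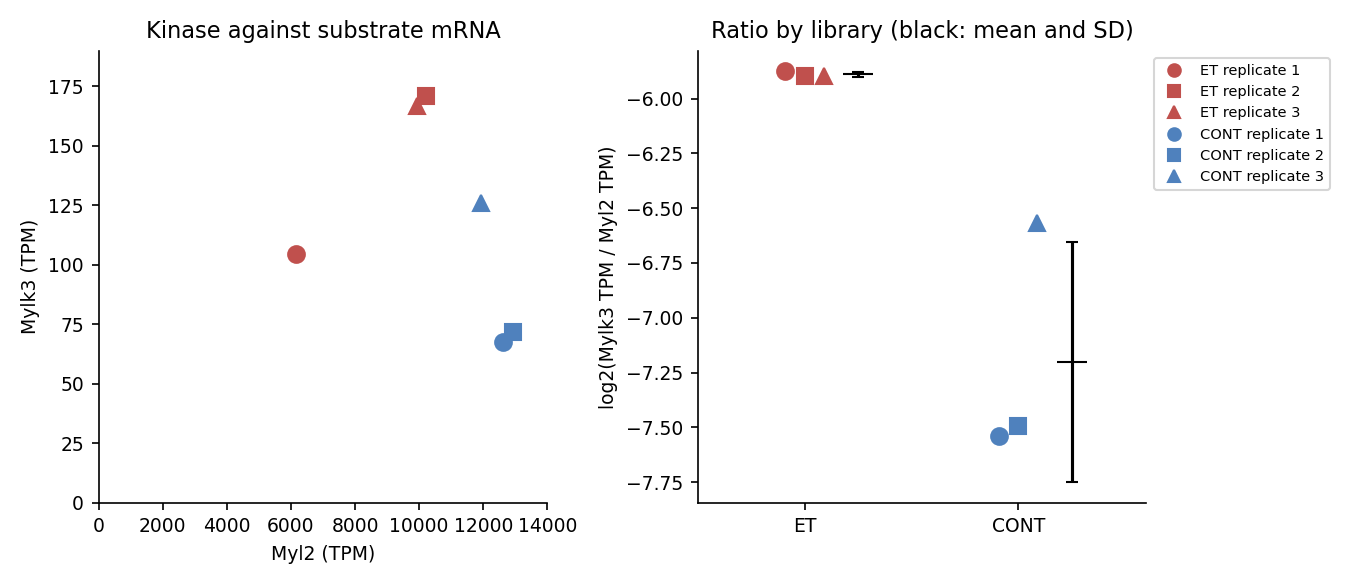
Left, Mylk3 against Myl2 in TPM, 1 symbol per library; right, the log2 ratio of Mylk3 to Myl2 by group, ET left of CONT, with mean and SD in black. The ET libraries lie at -5.88 to -5.90 and the CONT libraries at -6.57 to -7.54.

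Mylk, the kinase of smooth muscle and non-muscle cells (ENSMUSG00000022836, chromosome 16, 34745210 to 35002420, plus strand), stood at 12.4, 7.90 and 4.38 TPM in ET replicates 1 to 3, against 5.24, 4.10 and 5.18 TPM in CONT replicates 1 to 3. ET replicates 1 and 2 lay above all CONT libraries and ET replicate 3 lay within their range. Its log2 fold change was 0.62 ± 0.36 (SE; adjusted p = 0.623 in edgeR's quasi-likelihood test), and it was 0.17 without ET replicate 1. The log2 ratio of mean CPM was 1.14 within set 1 and 0.39 within set 2. Mylk gives rise to a long kinase transcript (7824 bases, Mylk-201) and to a shorter coding one (1620 bases, Mylk-203). The effective length of the gene in the files, an average over its transcripts weighted by their abundance, was 6066, 4945 and 4733 bases in ET replicates 1 to 3, against 5477, 5312 and 4438 bases in CONT replicates 1 to 3. It was higher in set 1 than in set 2 in every library and highest in ET replicate 1. Mylk was itself among the genes whose effective lengths were clustered into these sets. Of the exon bases of Mylk, 6.85% overlap genes on the opposite strand, E130310I04Rik and Gm21691. The log2 ratio of Mylk to Myl9, its substrate in smooth muscle, was -4.05, -2.04 and -2.25 in ET replicates 1 to 3, against -2.78, -2.65 and -3.07 in CONT replicates 1 to 3. ET replicate 1 was lowest and the other ET libraries highest, so the mean difference was 0.06 with p = 1.0 in a two-sided exact permutation test.

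**Figure D5:**
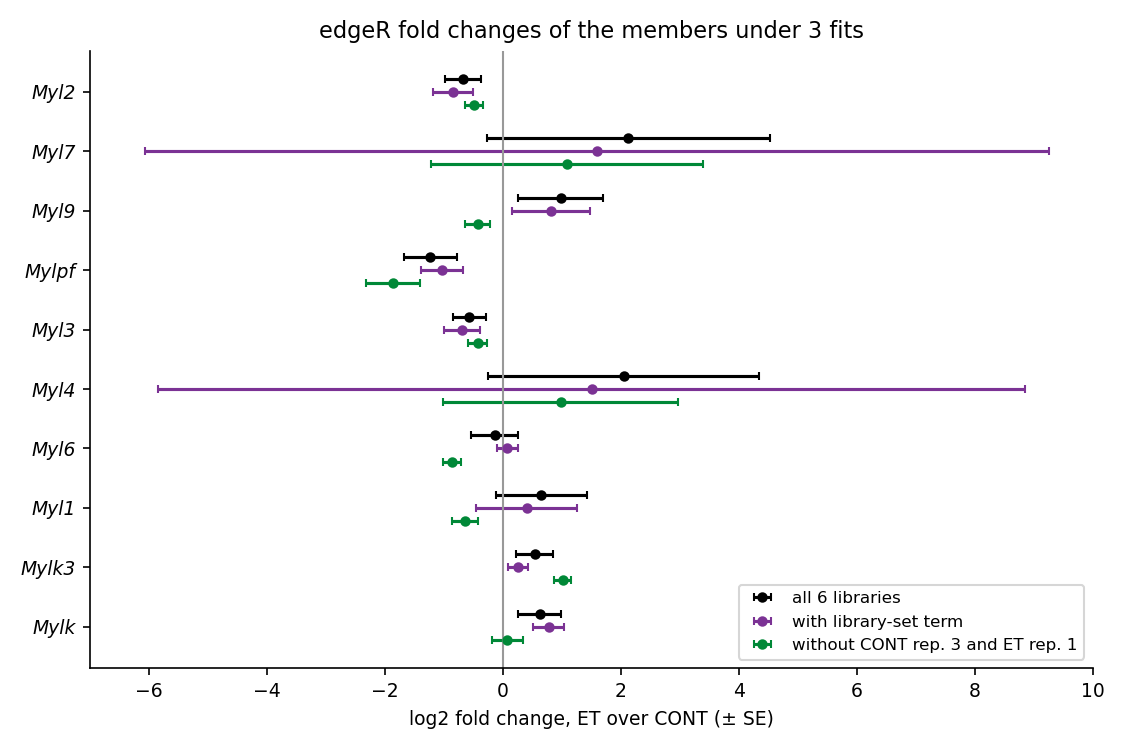
Log2 fold change, ET over CONT, with its SE for each member in edgeR fits of all 6 libraries (black), with a term for the library sets (purple) and without CONT replicate 3 and ET replicate 1 (green). Myl2, Myl3 and Mylpf lie below 0 and Mylk3 and Mylk above 0 in all 3 fits, whereas Myl9 and Myl1 turn from above 0 to below 0 in the last.

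Among the levels, Myl2 ranked above Myl3 in both groups with ranges that did not overlap. In CONT the ranges of Myl7, Myl6, Myl4 and Mylk3 overlapped from each neighbour to the next. Mylk3 lay wholly above Myl1, Myl1 and Myl9 overlapped, and Mylk and Mylpf came last, each with a range separate from that above it. In ET the ranges overlapped from Myl3 down to Myl1. The 8 member light chains together, without Myl12a, Myl12b and other light chains, made up 1.58%, 1.47% and 1.41% of TPM in ET replicates 1 to 3, against 1.80%, 1.85% and 1.80% in CONT replicates 1 to 3.

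Of other genes that act on the light chains, none passed with all 6 libraries. Of 6 other light chains and kinases, 4 were tested, with 1 higher and 3 lower in ET and a median log2 fold change of -0.12. Myl12a, a non-muscle regulatory chain, stood at 270, 259 and 451 TPM in ET and 308, 284 and 399 TPM in CONT, Myl12b at 130, 81.6 and 47.0 TPM in ET and 85.5, 78.8 and 57.4 TPM in CONT, and these sister genes share long runs of sequence. Myl6b, an essential chain of slow muscle and non-muscle cells, was at 1.31 to 1.70 TPM in ET and 1.23 to 1.58 TPM in CONT. Mylk4, a kinase expressed in heart, stood at 12.2, 28.4 and 13.9 TPM in ET replicates 1 to 3, against 11.6, 8.57 and 19.3 TPM in CONT replicates 1 to 3. Mylk2, the skeletal muscle kinase, was at 0.02 to 0.26 TPM in ET and 0.03 to 0.10 TPM in CONT, and Myl10 was listed at 0 in all libraries.

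Myosin phosphatase removes the phosphate that these kinases add. Of 13 genes for its catalytic, targeting and inhibitory subunits and for kinase signalling that inhibits it, all were tested, with 9 higher and 4 lower in ET, 0 past an unadjusted p of 0.05 and a median log2 fold change of 0.06. The lowest p-values belonged to Rock2, a kinase that inhibits the phosphatase (12.1, 12.4 and 11.6 TPM in ET, against 7.14, 6.92 and 10.4 TPM in CONT; log2 fold change 0.39 ± 0.17), to Ppp1r14c, a phosphatase inhibitor (19.0, 25.8 and 30.5 TPM in ET, against 31.4, 29.0 and 39.1 TPM in CONT; -0.52 ± 0.27), and to Rock1, a close relative of Rock2 (12.2, 9.20 and 10.4 TPM in ET, against 7.92, 7.38 and 9.25 TPM in CONT; 0.22 ± 0.14). Without ET replicate 1 and CONT replicate 3, where group and set cannot be told apart, Rock2 passed (log2 fold change 0.62 ± 0.12, adjusted p = 0.0412 in edgeR's quasi-likelihood test). With all libraries the adjusted p of Rock2, Ppp1r14c and Rock1 was 0.572, 0.592 and 0.648 in edgeR's quasi-likelihood test.

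Genes of the most similar pattern were taken as the 4 with the highest Pearson correlation of log2 CPM over the 6 libraries among 7655 genes with a mean of at least 10 CPM. For Myl2 these were Myl3 (r = 0.998), Ckm (muscle creatine kinase, 0.996), Eef1akmt1 (0.996) and Cyc1 (cytochrome c1, 0.994). For Myl7 they were Myl4 (0.993), Mybphl (a myosin-binding protein of the atrium, 0.992), Sln (0.990) and Manba (a lysosomal mannosidase, 0.982). For Mylk3 they were Sik3 (a salt-inducible kinase, 0.999), Etf1 (a translation release factor, 0.999), Hipk3 (0.999) and Ttc38 (0.998), for Mylk they were Rin2 (0.998), Plekhg3 (0.996), Fam102b (0.994) and Fibin (0.992), and for Mylpf they were Gtf3c2 (0.990), Naa80 (0.990), Brd9 (0.987) and Mid1 (0.985). The closest match of Myl2 was thus Myl3 and that of Myl7 was Myl4, while Mylk3 and its substrate Myl2 had r = -0.05. These are descriptions over 6 points that share their libraries, depth and scaling factors.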

How the data were processed

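Left ventricle RNA (1000 ng per library, 75 bp paired reads planned) was sequenced in 3 ET and 3 CONT libraries, per the labels' protocols. Alignment with STAR 2.7.0f and quantification with RSEM 1.2.31 on mm10 are named in the submitters' processing notes. For annotation release and strandedness: not given in the sources used here. The authors' deposited values are expected counts as estimated by RSEM, not normalized, in 1 table, and TPM and FPKM in a file for each library, per the file headers. The 590-base transcript of Myl7 exceeds its effective length by 71.9 to 74.4 bases, near the read length of 75, so the counts may be of single reads and not of read pairs, which was not tested.

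Expected counts were rounded. The filterByExpr function (at least 10 counts in a group's worth of libraries, 15 in all) left 15727 genes, and ET was compared with CONT by edgeR 4.0.16 (R 4.3.3) with its robust quasi-likelihood test, TMM factors (0.920 to 1.19), no covariate, two-sided, Benjamini-Hochberg adjusted over all genes, threshold 0.05. SE is the log2 fold change over the square root of F. The spread between replicates, as common biological coefficient of variation, came to 0.297. The code was tested on simulated counts. Shares and ratios were tested by exact permutation over libraries (scipy 1.17.1). Effective length is expected counts over FPKM and library total; average-linkage clustering of its log2 values in 4792 genes with at least 500 counts gave the library sets. Replicate numbers follow accession order and pair nothing. Alternatives were RLE, upper-quartile and no factors, no filter and a CPM of at least 1 in 3 libraries, DESeq2 1.42.0, limma-voom, limma-trend on TPM in log2 with 1 or 0.1 added (limma 3.58.1), removal of mitochondrially encoded or the 10 most abundant genes, a term for the sets, and leaving out libraries. Places, exon overlaps and transcripts come from GENCODE vM21 (GRCm38), promoter windows from RefSeq (GRCm38.p6). All 10 members are named by rule, with the 3 genes of lowest p in the related lists and the 4 genes of most similar pattern for 5 members. The members and lists were chosen with earlier results of these data known. Protein sequences were not used here, and the result of 1 related list is not reported here.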

Additional observations from a re-analysis of the deposited data

How the results depend on the processing

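No member passed the adjusted threshold in the alternatives run except Mylk3 and Myl6 when ET replicate 1 and CONT replicate 3 were both left out (2 members called, 828 genes over all). Over all genes edgeR called 0 with 1360 at an unadjusted p under 0.05 (565 to 2610 without single libraries), DESeq2 185, limma-voom 0 (1267 at an unadjusted p under 0.05), and limma-trend 1 with log2(TPM + 1) and 2 with log2(TPM + 0.1); without single libraries edgeR called 0 genes each time, and 0 members. Of 189 member fold changes recomputed, 176 kept their direction without passing, 2 passed and 11 turned. Myl2, Myl3, Mylpf, Mylk and Mylk3 kept their direction in all alternatives run (Mylpf has no value under the stricter filter). Myl6 turned to 0.039 with library totals only and to 0.075 with the set term, and spanned -0.68 to 0.10 without single libraries. When both of those libraries were left out Myl1 was -0.65 and Myl9 -0.43. Without single libraries Myl1 spanned -0.93 to 1.09, Myl4 -2.74 to 5.77, Myl7 -2.69 to 5.90 and Myl9 -0.49 to 1.40, each lowest without ET replicate 1. The Myl7 share difference was -5.06 percentage points within set 2 and spanned -1.52 to 16.5 without single libraries, and the Myl4 share -8.32 and -2.53 to 17.3. The log2 ratio of Mylk to Myl9 was -1.33 within set 1 and spanned -0.31 to 0.69, and the summed essential chains were 0.12 within set 1. The cause was not tested. Library totals moved the median log2 fold change of all genes from 0.01 to 0.12, and limma-trend on TPM to 0.15 and 0.18. Relative to that shift Myl6 stayed below 0 in these fits. With the set term the median was -0.002, and Myl6 lay above it. Mylpf, with 9 counts in each of 2 ET libraries, is limited by depth. No paired analysis was possible because the labels give no replicate numbers that groups share.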
